A study of Mus musculus with 6 samples.

Results

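Mouse chromosome 4 was examined window by window for a block of 35.4 Mb in which 1 of 6 replication timing profiles stood apart. The members were all windows of chromosome 4 in both deposited tables, 14012 of 237602 windows in the series, with a median length of 10042 bp. The 6 columns of values carried no sample names and are called profiles A to F, in the order of columns 5 to 10, and F is column 10. Of the 14012 windows, 12286 were valued in all 6 profiles, 1493 had no value in F alone, 213 had no value in any profile and 20 showed other patterns. The stretches in which F was raised, and the windows missing in F, were chosen on F set against A to E. The levels of F there therefore describe how the members were picked and carry no test.

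The series held 3 samples of the genotype Recql4 -/- Klhdc3 -/- and 3 WT samples, all of them mouse myeloid lines made immortal by HoxB8 and grown out under GM-CSF. The helicase Recql4, of the RecQ family, acts at the start of DNA replication, and Klhdc3 recruits proteins to a ubiquitin ligase built on CUL2. The labels give a division time of 15 to 18 hours, with more than 25% of the culture in S phase. No label tied a profile to a genotype, so no genotypes were compared, and the labels do not say whether the samples were separate clones.

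Whole-genome sequencing of a growing, unsorted culture reads out replication timing because DNA that is copied early in S phase is present in more copies, on average, than DNA that is copied late. Early DNA is usually rich in genes and in active promoters, and late DNA is often made of gene-poor stretches and long neuronal genes. Depth also follows the number of copies of a region per cell, so a level on its own does not separate early replication from an added copy. The raw level below is the authors' normalised copy level, with medians of chromosome 4 between 1.95 and 1.98 in the 6 profiles. The score is their smoothed and scaled timing value, and a higher score stands for earlier replication.

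The sequences shown first are promoters that lie inside the block, 2 in windows that had no value in F and 2 in windows that were valued and raised in F. Hsdl2, a hydroxysteroid dehydrogenase-like gene, was the earliest gene of its missing run in profiles A to E, and Cdk5rap2 encodes a centrosome protein. Klf4, a transcription factor of monocyte differentiation, and Brinp1, a neuronal gene, lay in raised stretches. Each line gives 250 bases upstream of a start site in the RefSeq promoter table (GRCm38.p6), 5′ to 3′ on the strand of the gene, with each CG dinucleotide in capitals. For Hsdl2 that start site lies inside the annotated gene, which begins at 59581517.
Hsdl2 (chr4:59581313-59581562, plus strand): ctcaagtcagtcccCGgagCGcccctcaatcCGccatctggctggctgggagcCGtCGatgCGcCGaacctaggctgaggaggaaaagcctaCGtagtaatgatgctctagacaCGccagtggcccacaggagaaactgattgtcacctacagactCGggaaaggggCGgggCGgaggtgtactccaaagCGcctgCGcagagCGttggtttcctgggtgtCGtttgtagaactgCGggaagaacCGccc
Cdk5rap2 (chr4:70410436-70410685, minus strand): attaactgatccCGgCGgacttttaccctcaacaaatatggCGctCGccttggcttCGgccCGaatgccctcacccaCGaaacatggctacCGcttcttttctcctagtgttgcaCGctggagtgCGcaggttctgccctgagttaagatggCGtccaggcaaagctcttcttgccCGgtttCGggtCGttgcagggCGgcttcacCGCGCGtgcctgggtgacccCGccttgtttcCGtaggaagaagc
Klf4 (chr4:55532476-55532725, minus strand): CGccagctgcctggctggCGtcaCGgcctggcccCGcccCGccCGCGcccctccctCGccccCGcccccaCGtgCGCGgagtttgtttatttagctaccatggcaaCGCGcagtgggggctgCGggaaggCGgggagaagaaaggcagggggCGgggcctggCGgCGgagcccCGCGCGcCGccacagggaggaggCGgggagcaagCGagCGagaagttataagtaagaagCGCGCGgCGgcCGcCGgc
Brinp1 (chr4:68954398-68954647, minus strand): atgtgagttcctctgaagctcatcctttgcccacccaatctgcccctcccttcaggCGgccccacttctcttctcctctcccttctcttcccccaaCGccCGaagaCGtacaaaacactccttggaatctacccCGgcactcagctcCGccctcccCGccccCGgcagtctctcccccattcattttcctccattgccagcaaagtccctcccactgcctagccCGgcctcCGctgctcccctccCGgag
These stretches hold 18, 20, 32 and 11 CG dinucleotides in the order of the lines. The raised Klf4 promoter had the most of the 4, so the 4 examples do not split by class.

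The block also holds 12 mature miRNAs from 9 genes, 10 of them in missing runs and 2 in a raised stretch. Of the protein-coding genes, 192 lay in missing runs and 43 in raised stretches, so nothing particular to miRNAs is read from this split. The 2 of the raised stretch come from Mir455, and miR-32-5p is shown as one that lay in a missing run. Capitals mark the seed, bases 2 to 8 from the 5′ end, and the sequences are those of RefSeq.
mmu-miR-32-5p (chr4:56895272-56895293, minus strand): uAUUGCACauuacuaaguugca
mmu-miR-455-5p (chr4:63256867-63256888, plus strand): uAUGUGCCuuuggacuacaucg
mmu-miR-455-3p (chr4:63256904-63256924, plus strand): gCAGUCCAcgggcauauacac
The window of Mir455 had a raw level of 2.27 in F, against a median of 2.01 in A to E, and a score of 2.51 in F, against 0.03 in A to E. The window of Mir32 had no value in F and a median score of 0.30 in A to E.

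In profile F, 5 stretches of chromosome 4 stood at about 1.21 times the level of the other profiles, and 7 runs of windows had no value in F. A 100-kb bin was called raised where the raw level of F was at least 1.1 times the median of A to E. On chromosome 4, 172 of the 1312 valued bins were raised. Over all autosomes 184 of 21496 valued bins were raised (0.856%), with these 172 among them. All of the 172 lay in the 5 stretches, no bin of the stretches fell short of the limit, and 12 raised bins lay on other autosomes. In the stretch bins the ratio of F to the median of A to E had a median of 1.21, with a range of 1.14 to 1.27. On the rest of chromosome 4 it had a median of 0.993, and the highest bin outside reached 1.054. No bin lay between 1.054 and 1.14, and the bins nearest the limit inside were those at 62600001 (1.14) and 48400001 (1.17), both next to a missing run.

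The first stretch ran from 37700001 to 40000000 and held a single protein-coding gene. Its mean raw level was 2.13 in F, against 1.75, 1.77, 1.80, 1.76 and 1.74 in A to E. The second, from 48400001 to 52600000, stood at 2.19 in F, against 1.81, 1.83, 1.85, 1.82 and 1.80. The third, from 54400001 to 56800000, stood at 2.34 in F, against 1.91, 1.93, 1.95, 1.94 and 1.94. In each of these the mean of F lay above the mean of every one of A to E. The stretches were chosen on F set against A to E, so this carries no test.

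Stretch 4, from 62600001 to 65200000, stood at 2.32 in F, against 1.91, 1.93, 1.94, 1.92 and 1.90 in A to E. The fifth and longest, from 67100001 to 73100000, stood at 2.22 in F, against 1.82, 1.83, 1.84, 1.82 and 1.79. The levels of F themselves followed those of A to E, being lowest in the first and second stretches and highest in stretches 3 and 4. As a result the ratio of F to the median of A to E was nearly the same in the 5 stretches, at 1.21, 1.21, 1.21, 1.21 and 1.22.

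**Figure D1:**
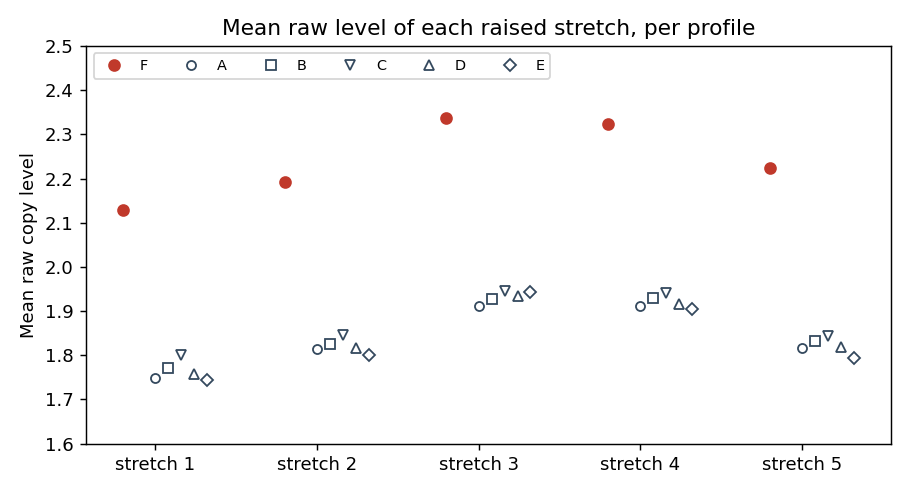
Mean raw copy level of each of the 5 raised stretches (vertical axis, from 1.6) in profile F (filled points) and in profiles A to E (open symbols, one per profile). F lay between 2.13 and 2.34 and each of A to E between 1.74 and 1.95.

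No other profile was displaced over these stretches. The median ratio of a profile to the median of the other 5, over the 172 stretch bins, was 1.21 in F, against 0.990, 1.00, 1.01, 0.994 and 0.983 in A to E. Proximal to the block, over 344 bins, the same ratio was 0.996 in F, against 0.993 to 1.01 in A to E. Distal to it, over 796 bins, the ratio was 0.992 in F, against 0.994 to 1.01 in A to E. The displacement of F was thus not a property of the whole chromosome.

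Most windows without a value in F alone lay between the stretches, and the shortest run lay inside the fifth. Chromosome 4 held 1493 of the 1514 such autosomal windows, which were 0.742% of all 204075 autosomal windows valued in A to E. Of the 1493, 1488 lay in the 7 runs of at least 100 kb, which covered 15.6 Mb. The runs reached from 39988310 to 41783828, from 42852276 to 48431830, from 52608433 to 54391120, from 56744227 to 60045473, from 61858520 to 62672768, from 65186209 to 67152782 and from 70214354 to 70563197. The longest held 544 windows in a row, all without a value in F. The other 5 windows lay together, far from the block, from 112852528 to 112903306 in Skint6, a gene of an immunoglobulin-like family of epithelia. Profile B alone lacked 7 windows of chromosome 4, and A, C, D and E lacked none on their own.

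Between the 2 outer borders given below lay 3112 windows, of which 1488 (47.8%) had no value in F alone, 1571 (50.5%) were valued in all profiles and 53 (1.70%) had no value in any profile. In each of the 1571 valued windows the raw level of F was above the median of A to E, against 41.8% of the 10715 valued windows outside the borders. Values were also absent from all profiles in places, and the 2 longest such gaps lay between stretches. The gap from 60045474 to 61858519 held 17 of the 22 Mup genes, which encode the major urinary proteins, and that from 41783829 to 42852275 held 17 genes, 5 of them chemokine genes of the Ccl family, among them Ccl19 and Ccl21a.

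**Figure D2:**
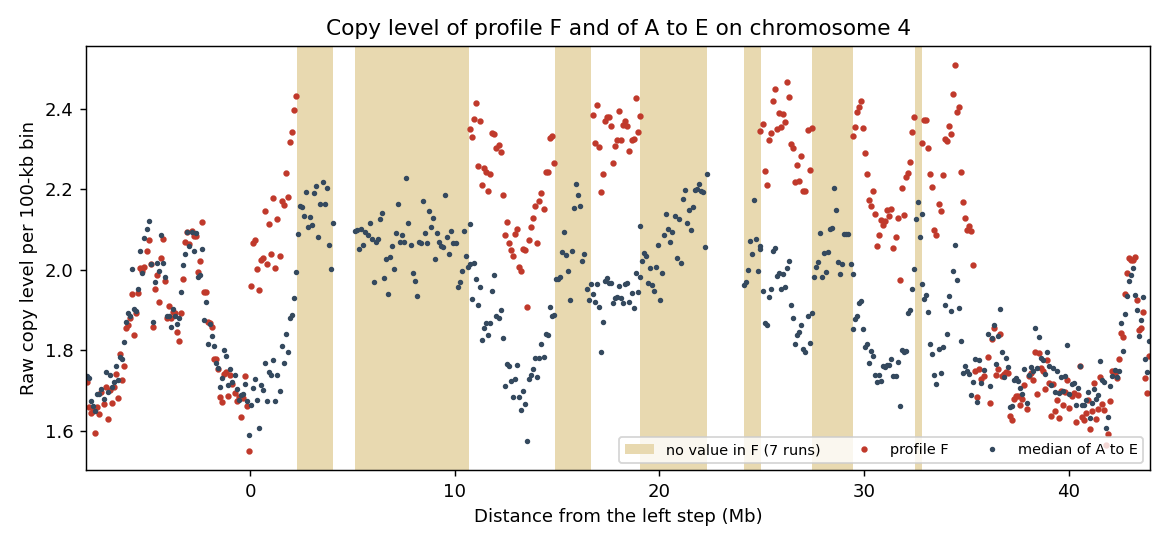
Raw copy level per 100-kb bin on chromosome 4 against the distance in Mb from the left border, for profile F (red) and the median of A to E (dark), with the 7 runs without a value in F shaded. F lies above the other profiles at every valued bin between the borders and on top of them outside, and the shaded runs cover the places where A to E are high.

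The missing windows had early scores in the other profiles. Their median score in A to E was 0.75, 0.75, 0.70, 0.66 and 0.69. In the windows that were valued and raised in F, the scores of A to E had medians of -0.81, -0.80, -0.91, -0.75 and -0.76. With the median of A to E taken per window, 96.6% of the missing windows scored above 0, against 8.85% of the raised ones. The raw level of A to E, as a median per window, was 2.08 in missing windows and 1.85 in raised ones. Profiles A to E took part in the choice of windows. The borders were set on the ratio of F to their median, and missing windows had values in each of them. Windows side by side also share their timing, so the counts are not of independent sites.

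The change from valued to missing was narrow on the scale of timing. Between the borders, 0 of the 968 windows that scored below -0.5 in A to E lacked a value in F. Of the 514 windows between -0.5 and 0, 9.73% did, and of the 587 windows between 0 and 0.5, 76.3% did. All of the 990 windows at 0.5 or above had no value in F.

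**Figure D3:**
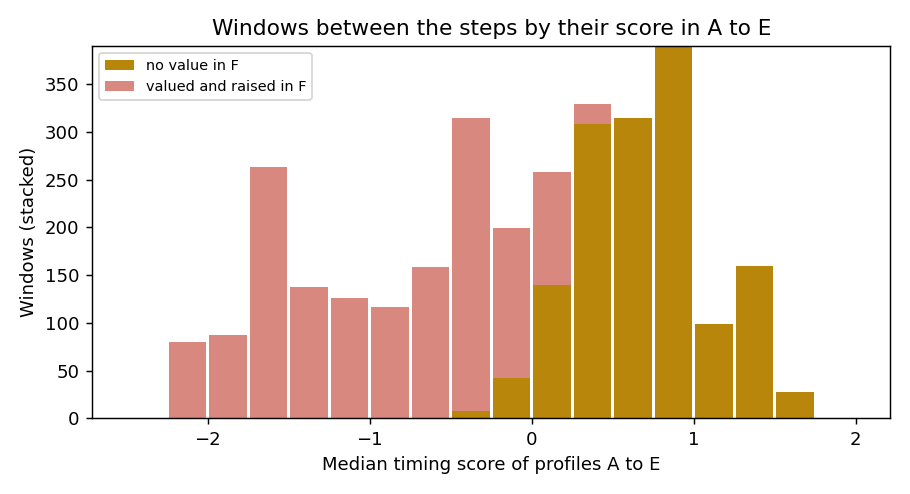
Number of windows between the borders (vertical axis, stacked bars) by their median timing score in profiles A to E (horizontal axis, steps of 0.25), for windows without a value in F and windows valued and raised in F. The missing windows occupy the early side, from just below 0 upwards, and the raised windows the late side.

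At the ends of the runs, the last values of F were high. At the 10 run ends that directly met a valued window, the 10 nearest valued windows had a raw level in F of 2.24 to 2.43 (median 2.35), against 1.85 to 1.99 in A to E. Over the same windows the score of F was 2.00 to 2.85, against -0.48 to 0.34 in A to E. In A to E the 10 missing windows just inside each end had a higher score and a higher raw level than the 10 valued windows just outside at each of the 10 ends. The highest valued 100-kb bin of F in the stretches had a raw level of 2.51, against 2.31 on the rest of chromosome 4 and 2.79 on the other autosomes. The 95th percentile of the bins of F was 2.42 in the stretches, against 2.18 on the rest of chromosome 4 and 2.195 on the other autosomes. Whether the level of F decided which windows lacked a value was not tested. No source used here gives the filter that removed windows.

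Both outer borders of the block were steps in the raw level. On the left the last window before the fitted step ended at 37708947 and the first raised window began at 37708948. The ratios of F to the median of A to E in these windows were 1.09 and 1.13, between the means of the sides. The mean ratio of F to the median of A to E was 1.198 over the 92 windows above this step and 0.987 over the 95 windows below it. In the first 10 raised windows F stood at 1.98, against 1.66 in A to E (1.61 to 1.68), and in the last 10 windows before them F stood at 1.57, against 1.59 (1.55 to 1.68). The lowest ratio among those 10 raised windows was 1.13 and the highest among the 10 before them was 1.09. Both borders were placed where these ratios split best, so the lack of overlap carries no test.

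On the right the last raised window ended at 73092806 and the next window began at 73092807. The mean ratio was 1.22 over the 92 windows below this step and 0.986 over the 73 above it. F stood at 2.05 in the last 10 raised windows, against 1.72 in A to E (1.69 to 1.75), and at 1.74 in the 10 windows after them, against 1.78 (1.74 to 1.81). Here the lowest ratio inside was 1.13 and the highest outside 1.03. The borders lay 35.4 Mb apart, and no protein-coding gene overlapped either of them.

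Both borders lay away from protein-coding genes. The closest to the left border were Lingo2, a neuronal leucine-rich repeat gene that ends 757 kb below, and 1700009N14Rik, which begins 1741 kb above. The closest to the right border were Aldoart1, an aldolase retrogene, 240.2 kb below, and Gm11487, 308 kb above. The precision of both borders was at best the window length, about 10 kb, and the scatter of single windows was not allowed for.

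The smoothed score spread each border over a longer distance. On the left, F minus the median of A to E was 2.38 score units inside and -0.07 outside, and the part of this rise between 10% and 90% took 589 kb. On the right the difference was 2.88 inside and -0.09 outside, and the same part took 686 kb. At the steps themselves the difference stood at 1.30 and 1.36, between the levels of both sides. In the smoothed table the bins from 37600001 and from 73100001, which lie outside the raised stretches, were off by over 1 unit in F, and no other bin outside the stretches ranged so widely over the 6 profiles.

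**Figure D4:**
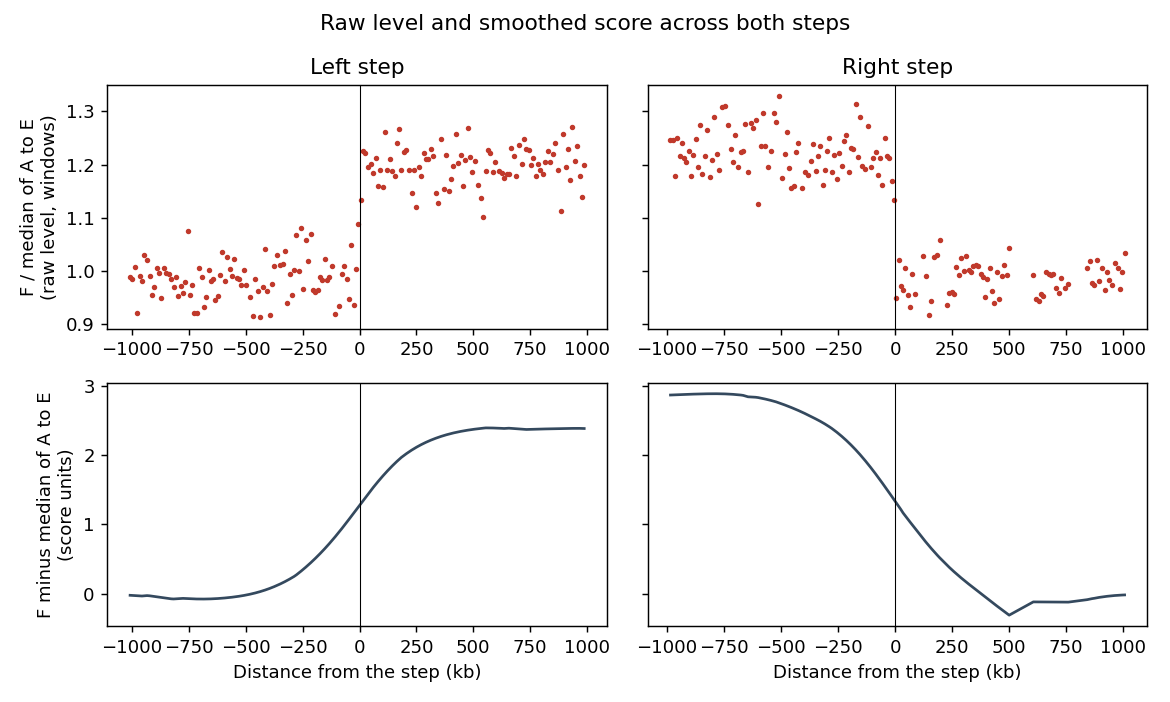
Ratio of F to the median of A to E per window on the raw level (upper panels) and F minus the median of A to E on the smoothed score (lower panels) against the distance in kb from the left and the right border. The raw ratio has means of 1.198 and 1.22 inside and 0.987 and 0.986 outside, with the fitted step between neighbouring windows. The score changes over 589 and 686 kb.

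Inside the stretches the order of replication in F followed that of the other profiles. Over the 172 stretch bins, the score of F correlated with the median of A to E at a Pearson r of 0.957 (Spearman 0.956). Each of A to E correlated with the median of the other 4 of them at 0.983 to 0.990. On the rest of chromosome 4, over 1140 bins, the r of F was 0.987, against 0.985 to 0.996 in A to E. Bins are neighbours in the same libraries and the scores are smoothed, so these values describe the likeness of the curves. With bins within 600 kb of a border left out, a choice made after the data were seen, r was 0.962 in F over 158 bins, against 0.980 to 0.988 in A to E.

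By stretch, the r of F was 0.970, 0.990, 0.814, 0.875 and 0.927 in the first to the fifth, against medians of A to E of 0.996, 0.994, 0.907, 0.969 and 0.988. The values of F were lowest in stretches 3 and 4, where the medians of A to E were lowest too. The scores of A to E spanned only -0.74 to 0.17 in the third stretch, against -2.18 to 0.38 in the first. In the third stretch, E was lower than F, at 0.744.

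The scores of F were displaced upwards in every stretch bin, by 1.44 to 3.17 score units. The median difference from A to E was 2.53 score units in the stretches, with an SD of 0.235 over bins that was larger than in the other profiles, against -0.05 to 0.07 for A to E, with SDs of 0.0998 to 0.134. On the rest of chromosome 4 the median difference of F was -0.09, below the -0.02 to 0.04 of A to E. The raw level of F rose by 1.19 for each unit of the median of A to E, against 0.831 to 1.11 for A to E within the stretches. On the rest of the chromosome this slope was 1.04 in F. By stretch, the slope of F was 1.44, 1.14, 1.16, 0.881 and 1.28 in the first to the fifth, so it was below 1 in stretch 4.

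**Figure D5:**
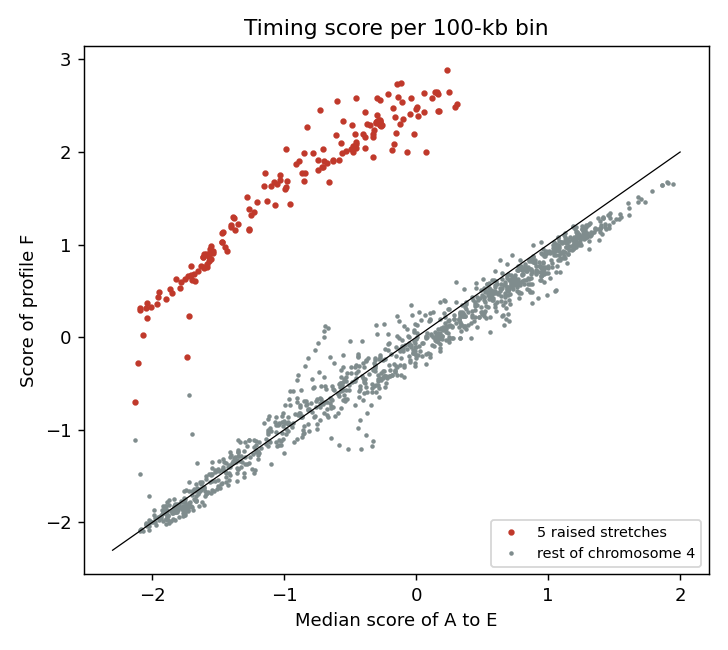
Timing score of profile F (vertical axis) against the median score of A to E (horizontal axis) per 100-kb bin of chromosome 4, for the 5 raised stretches (red, 172 bins) and the rest (grey, 1140 bins), with the line of equal scores. The stretch bins lie 1.44 to 3.17 units above the line (median 2.53), lowest at the left border and highest in the bin from 67500001, near the start of the fifth stretch.

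With turning points of at least 0.25 score units, F had 5 late sites (local minima) and 2 early ones (local maxima) in the stretches, and 3 and 1 of them had a match within 100 kb in each of A to E. The deepest late site lay from 51052286 to 51065882, where no protein-coding gene lay within 50 kb. F scored 0.29 there, against -2.10 in A to E (-2.14 to -1.99), and A to E had their own minimum at most 64.2 kb away. The early site from 72089349 to 72103069, within 50 kb of Tle1, scored 2.76 in F, against -0.10 in A to E, and matched within 29.3 kb. The other 3 turning points of F lacked a match in at least 1 profile. At 69279184 (0.74 in F, against -1.61 in A to E) the nearest minimum of another profile lay up to 964 kb away. The minimum at 54861966 (2.06 in F, against -0.48 in A to E) had a match in 2 profiles. Profiles C, D and E had no minimum of at least 0.25 score units in that stretch. They had shallower dips near this site, with lowest 100-kb bins of -0.48, -0.43 and -0.34.

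The ratio of F to the others was highest in the fifth stretch. In sliding spans of 500 kb it ran from 1.19 to 1.26, a range of 0.0738, against ranges of 0.0356 to 0.0670 for the ratios of A to E, each to the median of the other 4. The top span, from 67300001 to 67800000, stood at 1.26 in F, against 0.992 to 1.01 in A to E. Spans at 64700001 (1.23) and 72100001 (1.23) came next among those more than 2 Mb apart. These spans were picked for their high values.

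Genes followed the split of early and late DNA. The missing runs held 192 protein-coding genes, 12.3 per Mb, and the raised stretches 43, or 2.54 per Mb. The median score of A to E over these genes was 0.75 in the missing runs, where 191 of 192 scored above 0, and -0.14 in the raised stretches, where 18 of 43 did. On the rest of the chromosome the median was 0.85, and 825 of the 974 genes with a score lay above 0. Of all 1328 protein-coding genes of chromosome 4, 14.5% lay in missing runs and 3.24% in raised stretches. Of the 192 genes, 189 had no valued window in F at all. Promoters of 300 bases, also from RefSeq, were counted too, and those in missing runs had a median of 17 CG dinucleotides (215 promoters of 166 genes), against 9 in raised stretches (45 promoters of 36 genes). The rest of chromosome 4 had 16, and all promoters of the table had 7. CG reads the same on both strands. At least 1 CG was present in 99.5% of the promoters in missing runs, 97.8% of those in raised stretches, 97.5% of those on the rest of chromosome 4 and 94.6% of all promoters.

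Blood and innate immune genes of the block lay on both sides of the split. Pax5, a transcription factor of B cells (44524748 to 44710694), had raw levels of 2.04, 2.07, 2.04, 2.05 and 2.05 in A to E and no value in F in any of its 19 windows. Tlr4, the receptor for bacterial lipopolysaccharide (66827551 to 66846581), had 2.14, 2.13, 2.13, 2.08 and 2.12 in A to E and none in F. Tal2, a transcription factor of the Tal family, and Cd72, a B-cell surface protein, also lay in missing runs. Each of these genes was early in A to E, with the median score of Pax5 at 0.46 and that of Tlr4 at 0.51.

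Klf4 (55527137 to 55532475), in the third stretch, had a raw level of 2.18 in F, against 1.79, 1.88, 1.82, 1.84 and 1.81 in A to E. Orm1, an acute-phase plasma protein (63344556 to 63348163), had 2.47 in F, against 2.05, 2.02, 2.07, 2.05 and 2.04. Its relatives Orm2 and Orm3, the plasma protein gene Ambp, and Tnfsf15 and Tnfsf8, ligands of the tumour necrosis factor family, also lay in stretch 4. The ratio of F to A to E at these 6 genes ran from 1.18 to 1.21. Of the 15 innate and acute-phase genes of the list on chromosome 4, 4 lay in missing runs, 6 in raised stretches, 2 in the gaps and 3 outside the block, and of the 16 blood transcription and signalling genes 2 lay in missing runs and 1 in a raised stretch. Over all genes of the chromosome the counts were 192 and 43 of 1328, and nothing particular to the lists is read from these small counts.

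Of the 16 replication, repair and mitosis genes listed, 4 lay in missing runs, 2 in raised stretches and 10 elsewhere on the chromosome, against 14.5% and 3.24% of all its genes in missing runs and raised stretches. Smc2, a condensin subunit (52439221 to 52488365), had a raw level of 2.39 in F, against 1.91, 1.90, 1.91, 1.96 and 1.86 in A to E, the highest ratio among the listed genes at 1.25. Rad23b, a nucleotide excision repair gene, had 2.38 in F, against 1.97 to 2.03 in A to E. Topors, a ligase that binds topoisomerase I, Smu1, a splicing factor, Fancg of the Fanconi anaemia core complex, and Cdk5rap2 had no value in F. Cdk5rap2 (70216855 to 70410435) filled most of the shortest run, with raw levels of 2.11 to 2.16 in A to E.

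Of the 16 long and neuronal genes listed, 6 lay in missing runs, 3 in raised stretches and 7 outside the block. Of the 24 olfactory receptor genes of chromosome 4, 11 lay in missing runs and 0 in raised stretches, and the 19 interferon genes all lay outside the block. Over all genes of the chromosome, 192 of 1328 lay in missing runs and 43 in raised stretches. Brinp1 (68761372 to 68954397) had 2.15 in F, against 1.77, 1.80, 1.83, 1.77 and 1.75 in A to E, at a ratio of 1.21. Grin3a, an NMDA receptor subunit (49661611 to 49846023), had 2.32 in F, against 1.92, 1.91, 1.91, 1.89 and 1.92. Astn2, a gene of neuronal migration that covers 1024 kb, had no value in F in any of its 96 windows and scored 0.82, 0.72, 0.62, 0.48 and 0.43 in A to E. Profile A was the highest and E the lowest of the 5 there. Pappa, which encodes a protease of insulin-like growth factor binding proteins, crossed from stretch 4 into a missing run: 7 of its 25 windows were valued in F and 18 were not. Over its valued windows F stood at 2.39.

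The latest gene in the raised stretches was Cylc2, a sperm head protein gene (51216653 to 51250625), with a score of 0.35 in F, against -2.01, -2.07, -1.97, -2.12 and -2.05 in A to E. Its raw level was 1.97 in F, against 1.57 to 1.70 in A to E. The earliest gene in the runs was Hsdl2, with scores of 1.49 to 1.61 in A to E. The raw level of F at Cylc2 was near the chromosome's median of 1.98 in F. The earliest gene in the raised stretches by the score of A to E was Tex10, with 2.49 in F, against 0.14 to 0.36 in A to E. Tle1, a transcriptional corepressor and the earliest gene of the fifth stretch, had a raw level of 2.51 in F, against 2.00 to 2.08 in A to E.

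Genes also crossed the inner ends. Invs, which encodes the ciliary protein inversin, had 15 windows without a value in F and 1 with one, and its neighbour Tex10 had 1 without and 5 with a value. Rgs3, a regulator of G-protein signalling, had 11 windows without a value and 3 with one. A mean of F over such a gene covers only its valued windows.

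Outside the block, profile F left the other profiles in a few places. Over the 1129 bins more than 600 kb from a border, F differed by at least 0.5 score units from the median of A to E in 23 bins. Each of A to E, set against the other 4 of them, did so in 0, 0, 0, 11 and 33 bins. At Triqk (12800001 to 13600000) F scored -0.06, against -0.85, -0.78, -0.79, -0.25 and -0.01 in A to E, so that E lay above F and D between. At Bnc2 and Cntln (84500001 to 85200000) F scored -1.13, against -0.40, -0.30, -0.39, -0.50 and -0.67, and F was the lowest of the 6. At Jak1, a cytokine receptor kinase, and its neighbours (101100001 to 101600000) F scored 0.45, against 0.83 to 1.07, and at Per3, a clock gene, and its neighbours (151000001 to 151300000) 0.12, against 0.57 to 0.85.

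On chromosome 6, profile E showed missing and raised windows side by side as well. There 1072 windows between 136979153 and 149585403 had no value in E alone, with a median score of 0.32 in the other profiles, and the raised stretch from 138300001 to 139700000 had a median ratio of 1.30 and a median score of -0.79 in the others. On chromosome 4 the missing windows had a median score of 0.72 in the other profiles and the raised ones -0.80, at a median ratio of 1.21. The difference between the chromosomes was not tested.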

How the data were processed

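Windows of chromosome 4 were taken from 2 headerless tables. The raw table holds, as deposited, a normalised copy level per window, and the smoothed table holds a deposited timing score with a mean near 0 and an SD near 1 over the autosomes. The build mm10 and Picard 2.23.9 were named in the submitters' processing notes, and TIGER in the series title. No source used here gives the aligner, window filter, smoothing settings or library depths, and counting intervals are therefore left out. The SD of raw levels around the smoothed curve was 0.111 to 0.138 per window. No column was tied to a sample, and none was left unused. The planned exact permutation test of genotypes was not run.

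Windows valued in every profile were averaged into 100-kb bins with at least 3 windows. Raised bins (ratio of at least 1.1) were joined across at most 1 other bin and at most 1 Mb without values, and stretches of at least 1 Mb were kept. Runs of windows missing in F joined across at most 2 windows, and runs of at least 100 kb were kept. Borders were the single step of least squares within 1 Mb. Genes and promoters came from RefSeq (GRCm38.p6), the assembly of mm10, and a gene took the mean of the windows it overlapped. Named genes were those crossing ends of stretches or long runs, the earliest, latest and longest in each, and list members. Members and lists were chosen with earlier results of these data known, and gene assignment at run ends, the score classes, the printed sequences, the sliding spans and the comparison with chromosome 6 were settled after values were seen. The scripts were tested on simulated data. Python 3.11.15, pandas 2.3.3 and SciPy 1.17.1 were used.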

Additional observations from a re-analysis of the deposited data

How the results depend on the processing

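Of 44 values under alternatives, 40 stayed within the tolerance used, which was 1.5 times for lengths and counts, 100 kb for borders and the spread between A to E for ratios and correlations. The length of the raised stretches, 17.5 Mb, ran from 17.2 to 21.2 Mb under other limits, bins and gaps. It formed 3 stretches where gaps of up to 3 Mb were joined and 6 where gaps of up to 200 kb were. The borders did not move with flanks of 0.5 or 2 Mb. The correlation of F with A to E in the stretches, 0.957, was 0.965 in 200-kb bins, 0.941 with the mean of each stretch removed and 0.962 without bins near a border, the last an alternative added after the data were seen. With each of A to E left out in turn, it was 0.954 (without A) to 0.958, the ratio was 1.207 to 1.212, and the length (17.5 Mb) and the 1493 missing windows did not change. No paired analysis was possible because no profile has a known replicate number. Without known depth, counting error could not be separated from other scatter.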
